A study of Mus musculus with 2931 samples.

Results

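The insulin-like growth factor (IGF) genes described here are Igf1, the receptors Igf1r and Igf2r, and the binding protein genes Igfbp2, Igfbp3, Igfbp4, Igfbp5, Igfbp6 and Igfbp7. They were taken by symbol from the deposited count table, which held 9 of 9 of them among 18072 gene symbols. RNA had been sequenced from 2931 cells with an endothelial label (EC, lining cells of blood and lymph vessels), each sorted singly from the distal lung of mice into plates, with libraries cut by the Tn5 transposase. Mice labelled normal, called normal air here, were taken late in gestation (E18.5) or after birth at P1, P7 or P21, named by day, and a further group was P7 with the treatment label hyperoxia (raised oxygen), whose dose and length the labels do not give. Each group had 1 female and 1 male mouse; strain, genotype and the number of animals behind each mouse name are not given in the sources used here, so n counts mouse names and p-values measure the spread between these samples.

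IGF1 and its relative IGF2 are secreted growth factors. Both signal through the tyrosine kinase receptor encoded by Igf1r, which acts through insulin receptor substrates, the PI3K and AKT kinases, FoxO factors and mTOR. The product of Igf2r, the cation-independent mannose 6-phosphate receptor, binds IGF2 and carries it to lysosomes for breakdown, and it also sorts lysosomal enzymes. IGF binding proteins hold IGFs outside cells and lengthen or limit their action, and proteases such as PAPP-A, which cuts IGFBP4, release them. IGFBP7 binds IGFs weakly and is a known component of vascular basement membranes.

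The authors' subtype labels were used as they stand. Levels are CPM, the reads of a gene per 1000000 reads summed over the cells of a mouse and class, and a sum was used where it held at least 8 cells. The classes were Car4- capillaries (1463 cells, the Early and Late labels together), Car4+ capillaries (332), proliferative EC (390), nonproliferative embryonic EC (313), venous EC (203), arterial EC I and II together (138) and lymphatic EC (82). The mix of labels in a merged class differed between mice and ages. Early Car4- cells numbered 162 and 114 in the P7 female and male, and 4 and 3 at P21. Late Car4- cells numbered 44 and 2 at P7, and 268 and 265 at P21. Age and label thus differ together between P7 and P21 in Car4- capillaries. Arterial EC I and II numbered 16 and 1 in the P7 female, and 4 and 6 in the P7 male. A mouse had between 56564316 reads (P7 male) and 331392982 reads (P7 female), and the median reads per cell ran from 188610 in the P7 male mouse to 928377 in the P7 female mouse. By the sort labels 2694 cells came from a CD31 gate (an endothelial surface protein), 224 from a gate labelled mesench and 13 from a CD45 gate. The subtype markers followed the labels in part. Car4 lay at a median of 5286 CPM in Car4+ and 379.9 CPM in Car4- capillaries. Mki67 lay at 788 CPM in proliferative EC, Gja5 at 453 CPM in arterial EC and Prox1 at 603 CPM in lymphatic EC. These 4 had their highest class median there, though Mki67 also lay at 228 CPM in lymphatic EC. Nr2f2 lay at 432 CPM in venous EC and higher, at 586 CPM, in lymphatic EC. Slc6a2 had a median of 266 CPM in venous EC but 0.112 CPM in 1 venous sum. Lyve1 was not confined to lymphatic EC (3159 CPM), with 2222 CPM in venous and 1743 CPM in arterial EC. The 6 endothelial markers summed to at least 3211 CPM in every sum. Markers of other cells were lower but present. Over the sums of a class, 7 fibroblast genes together had medians up to 19.6 CPM and reached 360.6 CPM in a proliferative and 320.8 CPM in an arterial sum, and 5 mural genes reached 207.0 CPM in a proliferative sum. The 5 epithelial genes had a median of 124 CPM in embryonic EC and 45.5 CPM in Car4- capillaries, with up to 203.7 CPM, and 6 macrophage genes reached 72.7 CPM in an arterial sum. The single genes Ptprc, Epcam and Dcn had class medians of at most 0.122, 0.0342 and 0.00522 CPM. Other values were higher: Col1a1 had a median of 4.30 CPM in embryonic EC, and Ptprc reached 72.7 CPM in an arterial sum. The subtype labels came from the expression of the same cells, so differences between classes are given as a description with no test.

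Promoter sequences of the 3 members on which the main comparisons turn are shown for reference, as the 250 bases before the annotated start of each gene in RefSeq on GRCm38.p6, read 5′ to 3′ on the gene's strand. All 9 members matched this table, with 10 windows. Capitals mark the GC box GGGCGG on either strand, which occurred in 32.7% of 32841 windows of the same length. The window of Igf2r (chr17:12769707-12769956, minus strand) held 3 GC boxes and 27 CpG, where the median window held 6 CpG, and 2 E-boxes CACGTG (present in 6.02% of windows). That of Igfbp7 (chr5:77408046-77408295, minus strand) held 4 GC boxes and 26 CpG, and that of Igfbp5 (chr1:72874866-72875115, minus strand) held no GC box and 10 CpG. None of the 3 windows held the letters TATAA, found in 22.8% of windows. A match of letters is a description of the window and not a site.
Igf2r: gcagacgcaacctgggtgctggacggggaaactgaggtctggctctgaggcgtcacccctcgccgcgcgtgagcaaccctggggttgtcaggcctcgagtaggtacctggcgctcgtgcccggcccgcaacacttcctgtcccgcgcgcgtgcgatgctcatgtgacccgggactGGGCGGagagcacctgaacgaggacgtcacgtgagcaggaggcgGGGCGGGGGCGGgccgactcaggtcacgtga
Igfbp7: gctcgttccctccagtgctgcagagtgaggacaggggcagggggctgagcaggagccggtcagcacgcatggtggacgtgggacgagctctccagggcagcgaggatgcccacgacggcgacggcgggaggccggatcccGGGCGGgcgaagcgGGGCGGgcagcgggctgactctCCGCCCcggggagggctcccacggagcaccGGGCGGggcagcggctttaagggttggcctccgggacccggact
Igfbp5: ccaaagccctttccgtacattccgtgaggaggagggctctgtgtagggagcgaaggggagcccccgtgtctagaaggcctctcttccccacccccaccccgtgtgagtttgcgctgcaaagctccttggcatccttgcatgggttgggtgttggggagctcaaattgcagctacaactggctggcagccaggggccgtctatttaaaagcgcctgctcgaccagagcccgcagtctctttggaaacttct

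Igfbp7, Igfbp4 and Igf2r gave most of the reads of the 9 genes, and Igfbp2, Igfbp3, Igfbp5 and Igfbp6 were rare in cells. A read was found in 2078 cells (70.9%) for Igfbp4, 2047 (69.8%) for Igf2r, 1866 (63.7%) for Igfbp7 and 1568 (53.5%) for Igf1r. Igf1 had a read in 393 cells (13.4%). The other members had reads in 141 cells (4.81%, Igfbp5), 126 (4.30%, Igfbp3), 89 (3.04%, Igfbp2) and 20 cells (0.682%, Igfbp6). Per kilobase of exon, the scale on which genes can be set side by side, the highest class median of each gene was 3765 CPM per kb for Igfbp7 (Car4+), 320.2 for Igfbp4 (arterial), 34.2 for Igf1 (lymphatic), 33.9 for Igf2r (embryonic), 19.5 for Igfbp5 (lymphatic), 12.6 for Igfbp2 (embryonic), 7.26 for Igf1r (arterial), 5.31 for Igfbp3 (arterial) and 0.00938 for Igfbp6 (embryonic).

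**Figure D1:**
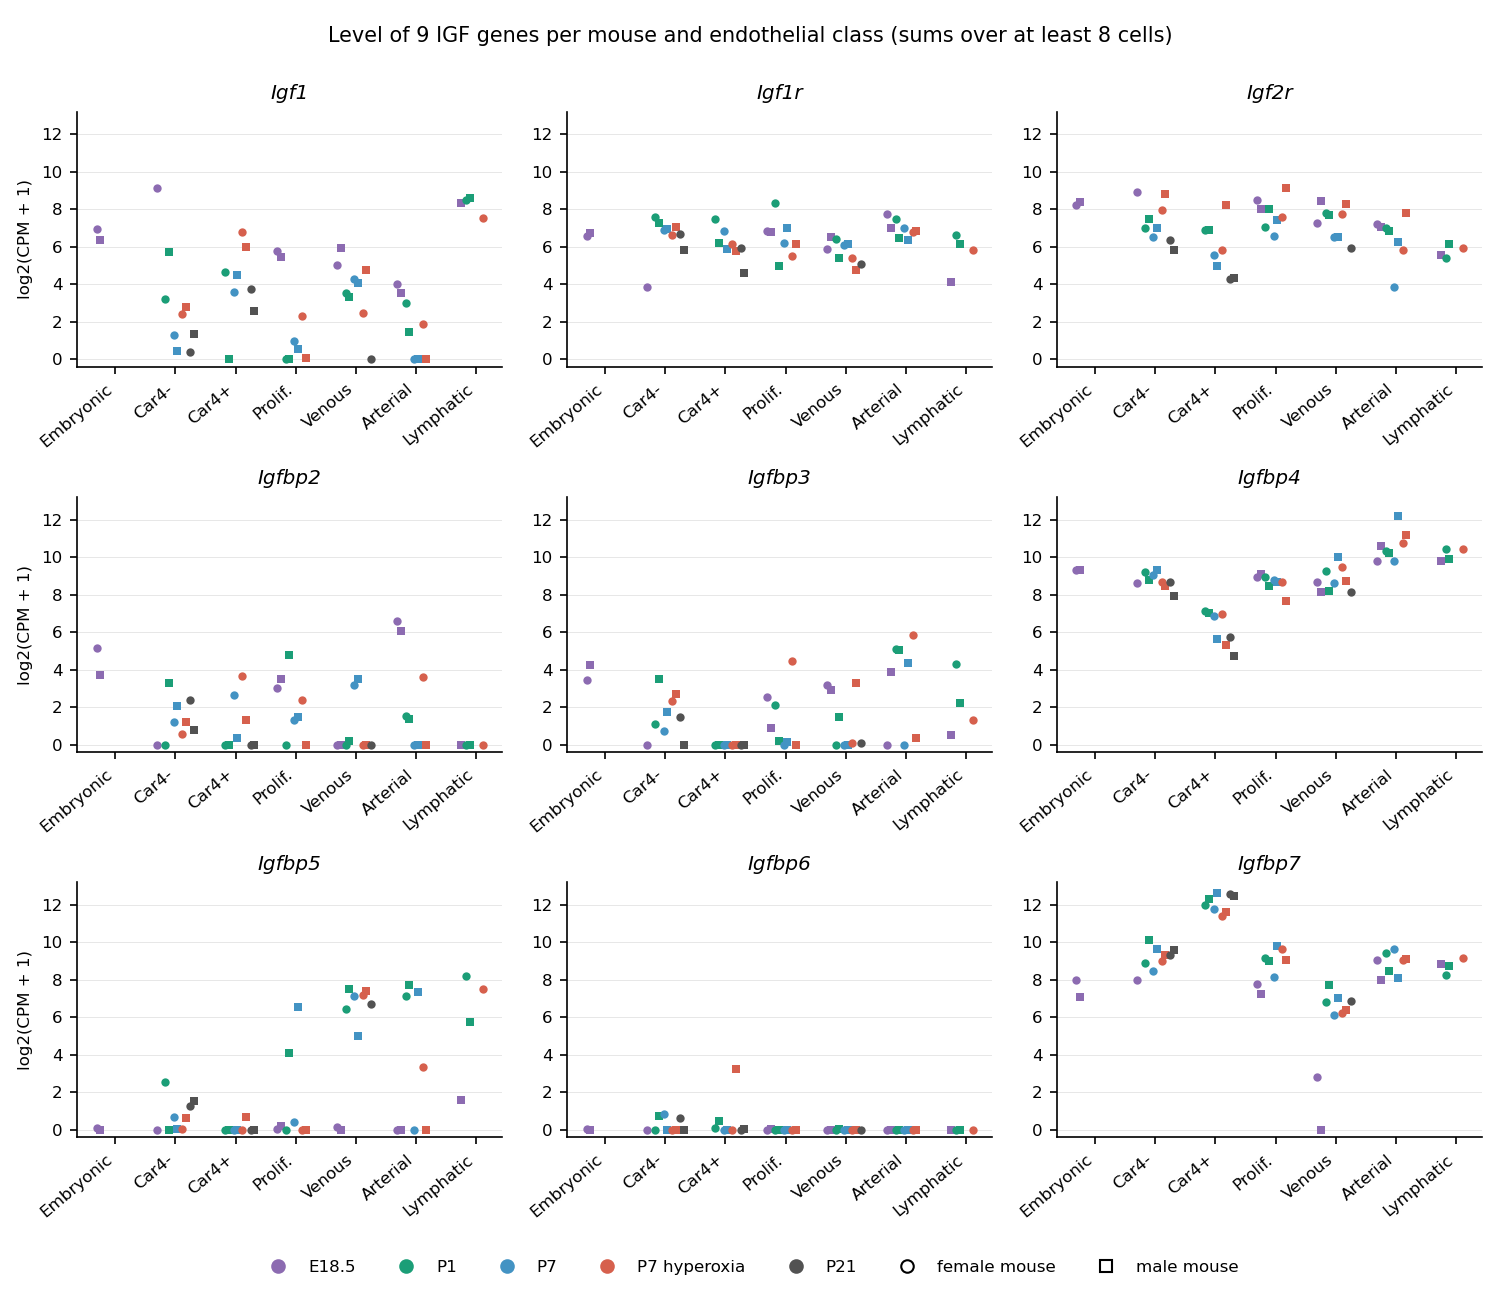
Level of each gene as log2(CPM + 1) per mouse and endothelial class, for sums over at least 8 cells; colour gives the group and the marker shape the sex of the mouse. Igfbp7 sits highest in Car4+ capillaries (2665 to 6294 CPM), Igfbp4 is lowest there (25.9 to 138 CPM), and Igfbp6 has 1 sum at 8.33 CPM (Car4+ capillaries, male hyperoxia mouse) and at most 0.819 CPM elsewhere.

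A mouse and class sum of a rare gene often rested on 1 cell. The cell with the most reads of a gene held a median of 17.7% of the reads of a sum for Igfbp4, 26.8% for Igf1r, 27.5% for Igfbp7 and 27.8% for Igf2r. It held 67.9% for Igf1, 68.7% for Igfbp3, 88.4% for Igfbp2, 92.6% for Igfbp5 and 100% for Igfbp6. For these latter genes the number of cells with a read is given beside the levels of the main comparisons.

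**Figure D2:**
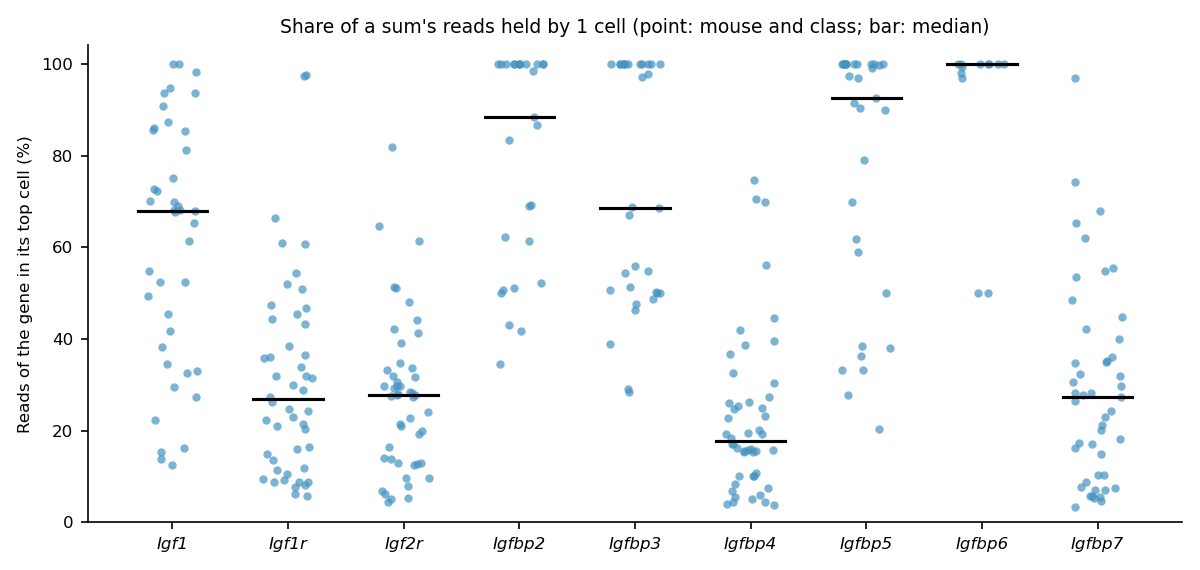
Share of a gene's reads held by the single cell with most of them (y axis, percent), for each mouse and class sum of at least 8 cells in which the gene had a read; black bars are medians over sums. The bars of Igf1r, Igf2r, Igfbp4 and Igfbp7 lie between 17.7% and 27.8%, and those of the other genes between 67.9% and 100%.

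Igf1 (chromosome 10, 87858265 to 87937042, plus strand on GRCm38), the secreted ligand, had its highest class medians in lymphatic EC and embryonic EC. In lymphatic EC it lay at 319 CPM in the E18.5 male, 358 and 392 CPM in the P1 female and male and 182 CPM in the female hyperoxia mouse, and 66 of 82 cells (80.5%, 95% exact binomial interval 70.3 to 88.4) had a read. In embryonic EC of E18.5 it lay at 121 CPM in the female and 82.1 CPM in the male mouse, with a read in 89 of 302 cells (29.5%, 24.4 to 35.0). Car4- capillaries had a read in 4.44% of cells (3.45 to 5.63). With every cell thinned to 50000 reads these shares were 74.4%, 24.7% and 2.54%, so the order held at equal depth. Unthinned, proliferative EC (22.1%), venous EC (15.3%) and Car4+ capillaries (12.3%) lay between embryonic EC and Car4- capillaries. These intervals treat the cells of all mice as independent and leave out the spread between mice. Floors and intervals on reads, used further on, leave out the spread between cells and between mice. PCR copies of a molecule are counted there as separate reads.

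Cycling EC had Igf1 before birth and almost none after it. In proliferative EC Igf1 had 54.8 CPM (45 of 122 cells) and 42.2 CPM (33 of 84 cells) in the E18.5 female and male, and no read in 13 and 9 cells of the P1 mice. At P7 the levels were 0.972 and 0.447 CPM, with 2 cells of each mouse. The P1 level against E18.5 was at most 0.00332 of it, taking 3 reads over the group as the floor, with an unadjusted p of 0.0025 and an adjusted p of 0.375 in edgeR's quasi-likelihood test. P7 against E18.5 gave a fitted log2 difference of -6.10 (SE 2.16, p = 0.018, adjusted p = 0.882). In Car4- capillaries Igf1 had 8.23 and 51 CPM at P1 (12 and 11 cells) and 1.42 and 0.376 CPM at P7 (4 cells each), a log2 difference of -5.22 (SE 1.40, p = 0.0026, adjusted p = 0.385). All these age groups were apart, both mice on 1 side, and none of the differences passed the adjusted threshold of 0.05. With 2 mice a group such separation carries little weight, here and below. Its share over all genes is given only for Igf2r under hyperoxia.

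Between the embryonic EC and the Car4- capillaries of P1 the Igf1 difference was -1.57 (SE 0.94, adjusted p = 0.637). Venous EC had 31.6 and 60.9 CPM at E18.5 (4 cells each), against 10.5 and 9.15 CPM at P1 (4 and 3 cells), a log2 difference of -2.35 (SE 1.42, adjusted p = 0.597). Arterial EC had 15.3 and 10.4 CPM at E18.5, from 1 and 2 cells, 7.13 and 1.71 CPM at P1 and none in 27 cells at P7, with adjusted p of at least 0.997. In Car4+ capillaries Igf1 was seen after birth at 0 to 24.5 CPM in normal air, and at 109 CPM (5 of 19 cells) and 63.5 CPM (6 of 37 cells) in the hyperoxia female and male. Both hyperoxia mice lay above both P7 mice in normal air (11.1 and 21.3 CPM), with a log2 difference of 2.08 (SE 1.81, p = 0.27, adjusted p = 0.896). In CD31-gate cells of the sequencing run that held the male mice of both P7 groups, the difference was far smaller. There the hyperoxia male had 63.5 CPM (37 cells) and the normal-air male 55.5 CPM (18 cells), a log2 difference of 0.19, with no test. The Car4- capillaries of the hyperoxia mice also lay above those in normal air, at 4.29 and 5.99 against 1.42 and 0.376 CPM (p = 0.069, adjusted p = 0.887). Neither difference passed the adjusted threshold.

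Cells with a read of Igf1 held reads of a fibroblast and mesenchyme list (7 genes) in 25.2% of cases against 18.7% of the other cells, with a mean summed level of 46.4 against 15.4 CPM and medians of 0 in both. Macrophage and monocyte genes (6) were seen in 18.8% against 15.6%. The part of these markers in the Igf1 values was not tested.

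Igf1r (chromosome 7, 67952827 to 68233668, plus strand), the signalling receptor, was spread over all classes. A read was found in 43.8% of venous EC to 64.5% of arterial EC. Over the 6 mice of P1, P7 and hyperoxia, in which 5 classes could be compared within a mouse, the order by mean log2(CPM + 1) was Car4- capillaries (135 ± 32.4 CPM, SD, n = 6), arterial EC (117 ± 34.5), Car4+ capillaries (92.3 ± 48.5), proliferative EC (112 ± 111) and venous EC (55.3 ± 22.2). No neighbours in this order were apart in every mouse. At the ends of the order, venous EC lay below the Car4- capillaries in 6 of 6 mice, by 1.35 ± 0.60 on the log2 scale.

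No age step of Igf1r passed the adjusted threshold. The Car4- capillaries of P1 had 189 and 156 CPM and the embryonic EC of E18.5 had 95.8 and 105 CPM, a log2 difference of 0.86 (SE 0.38, p = 0.041, adjusted p = 0.510). After P1 the level in Car4- capillaries was lower at each age with no overlap, at 120 and 121 CPM at P7 (-0.61, SE 0.37, p = 0.125, adjusted p = 0.538). P21 mice had 101 and 55.7 CPM, a difference of -0.53 from P7 (SE 0.37, p = 0.181, adjusted p = 0.655). The Late label held 44 and 2 of these cells at P7 and 268 and 265 at P21, so age and label differ together. Car4+ capillaries had 180.5 and 73.6 CPM at P1, 116 and 58.8 CPM at P7 and 61.5 and 23.5 CPM at P21, with neighbouring ages overlapping (P21 against P7 -1.10, SE 0.76, adjusted p = 0.900). Under hyperoxia the venous EC had 41.1 and 26.4 CPM against 68.2 and 69.4 CPM, a log2 difference of -1.03 (SE 0.81, p = 0.224, adjusted p = 1). The groups did not overlap, and the male hyperoxia value came from 6 of 30 cells with a read.

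Igf2r (chromosome 17, 12682406 to 12769664, minus strand), the clearance receptor for IGF2, had its highest class median in embryonic EC. A read was found in 92% of embryonic, 89.2% of venous and 88.7% of proliferative EC, and in 47.3% of Car4+ capillaries. At 50000 reads per cell these shares were 84.9%, 82.1%, 78.2% and 34.9%. Over the 6 mice of P1, P7 and hyperoxia the order was proliferative EC (236 ± 172 CPM), Car4- capillaries (203 ± 131), venous EC (189 ± 84), Car4+ capillaries (112 ± 101) and arterial EC (101 ± 71.6). The first 3 did not differ beyond their spread, and venous EC lay above Car4+ capillaries in 6 of 6 mice, by 1.03 ± 0.66 on the log2 scale. Lymphatic EC were low, at 40.8 to 71 CPM in 4 mice.

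Igf2r was lower at later ages in capillaries and proliferative EC in normal air, but not in every class: lymphatic EC had 46.4 CPM in the E18.5 male and 40.8 and 71.0 CPM at P1. Embryonic EC had 301 and 329 CPM in the E18.5 female and male, and Car4- capillaries had 129 and 176 CPM at P1, 91.4 and 125 CPM at P7 and 81.9 and 55.3 CPM at P21. The Car4- cells were mostly of the Early label at P7 and of the Late label at P21, so age and label differ together there. The step from embryonic EC to P1 was -0.94 (SE 0.42, p = 0.042, adjusted p = 0.510), with no overlap. Car4+ capillaries had 118 and 117 CPM at P1, 46.3 and 30.1 CPM at P7 and 18.7 and 19.1 CPM at P21, so each age lay below the one before in both mice (P7 against P1 -1.52, SE 0.82, adjusted p = 0.730; P21 against P7 -1.06, SE 0.81, adjusted p = 0.939). Proliferative EC had 366 and 259 CPM at E18.5, then 134 and 255 CPM at P1 and 93.4 and 174 CPM at P7 (P7 against E18.5 -1.28, SE 0.62, p = 0.063, adjusted p = 0.931). P1 and P7 overlapped in proliferative EC, and no step passed the adjusted threshold.

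In venous EC Igf2r had 152 and 344 CPM at E18.5, then 220 and 208 CPM at P1 and 92.2 and 90.8 CPM at P7. Both P7 mice lay below both P1 mice, a difference of -1.29 (SE 0.57, p = 0.043, adjusted p = 1). Arterial EC had 126 and 115 CPM at P1 and 13.8 and 76.9 CPM at P7 (-1.45, SE 0.90, adjusted p = 0.997), and 1 cell held 81.8% of the reads behind the 76.9 CPM. No sequencing run held cells sorted by CD31 from both P1 and P7 mice, so that age step and the run cannot be told apart. Within the run shared by the female mice, the embryonic EC of E18.5 had 301 CPM and the P1 Car4- capillaries 132 CPM, a log2 difference of -1.18.

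**Figure D3:**
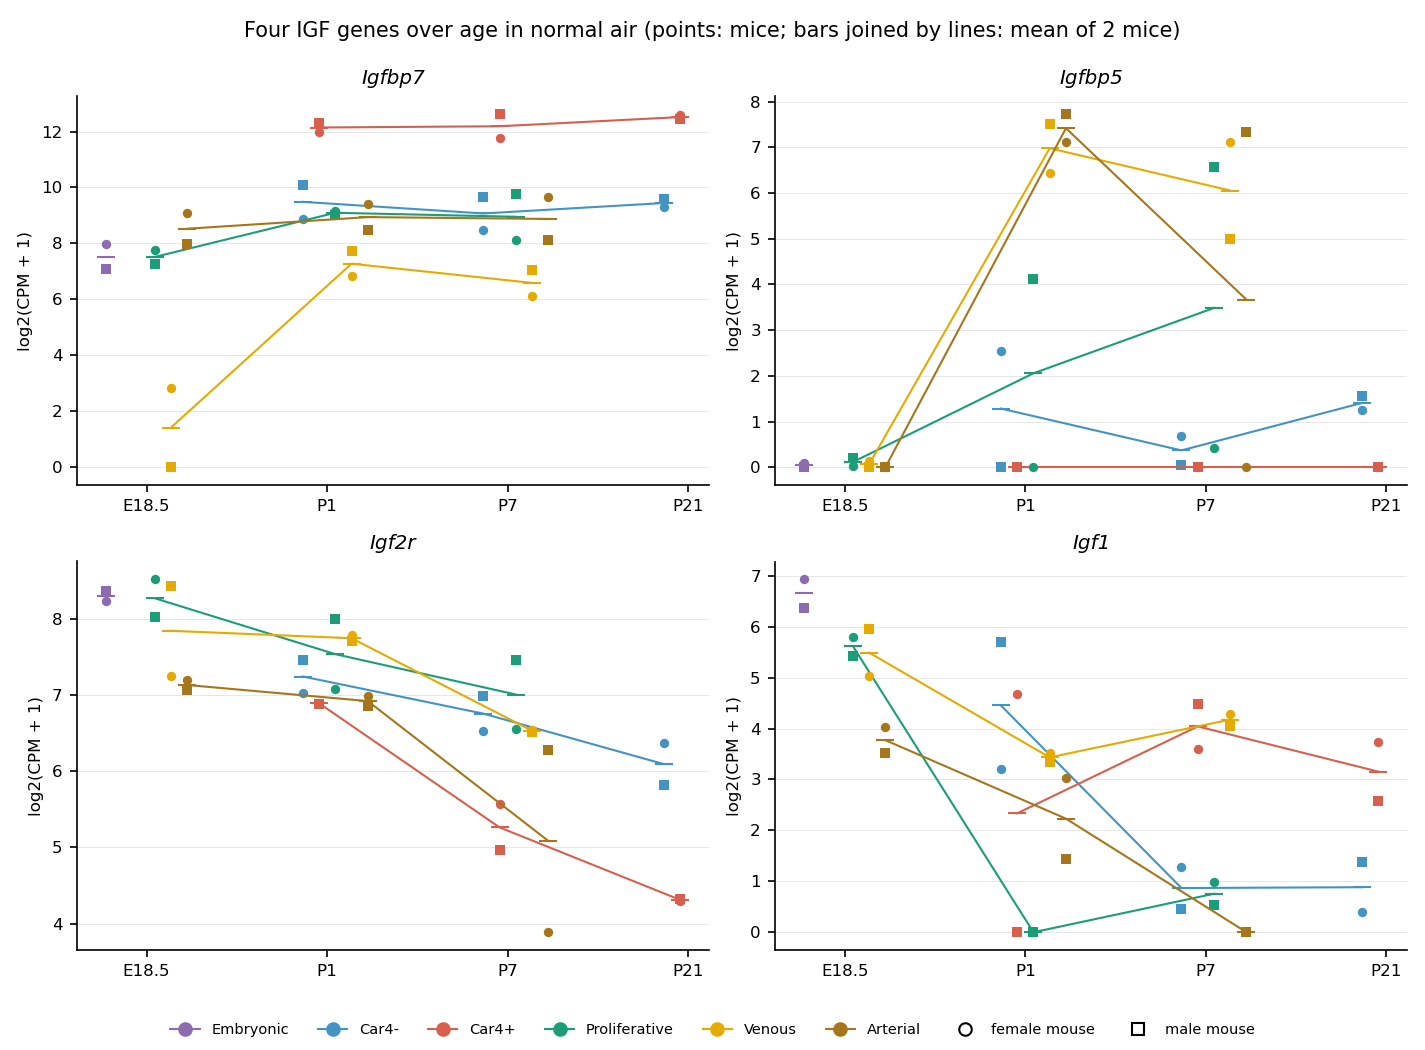
Level of Igfbp7, Igfbp5, Igf2r and Igf1 as log2(CPM + 1) over age in normal air, by class; points are mice (circle female, square male) and bars joined by lines are means of 2 mice. Car4- and Car4+ capillaries start at P1, embryonic EC are drawn at E18.5 alone, and venous EC of P21 (1 usable mouse) are left out. Car4- capillaries are mostly Early-label cells at P7 and mostly Late-label cells at P21. Igf2r runs from 301 and 329 CPM in embryonic EC to 18.7 and 19.1 CPM in Car4+ capillaries at P21, and Igfbp5 in venous EC from at most 0.0975 CPM at E18.5 to 85.7 and 183 CPM at P1.

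Hyperoxia at P7 was compared with normal air at P7 in 5 classes, and Igf2r was the member that stood higher in most of them. In Car4- capillaries Igf2r had 91.4 and 125 CPM in the normal-air female and male and 247 and 447 CPM in the hyperoxia mice. In Car4+ capillaries it had 46.3 and 30.1 against 56.9 and 305 CPM, in proliferative EC 93.4 and 174 against 192 and 570 CPM, and in venous EC 92.2 and 90.8 against 218 and 308 CPM. Both hyperoxia mice lay above both normal-air mice in these 4 classes. In arterial EC the values, 13.8 and 76.9 against 55.7 and 222 CPM, overlapped. The male hyperoxia mouse was the higher of the pair in each class.

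The fitted log2 differences of Igf2r were 1.66 in Car4- capillaries (SE 0.43, p = 0.0019, adjusted p = 0.662 in edgeR), 2.03 in Car4+ capillaries (SE 0.83, p = 0.030, adjusted p = 0.731), 1.53 in proliferative EC (SE 0.62, p = 0.032, adjusted p = 1), 1.54 in venous EC (SE 0.57, p = 0.020, adjusted p = 1) and 1.76 in arterial EC (p = 0.076). None passed an adjusted p of 0.05, a rule that called 0.0136% of the genes tested in Car4- capillaries and 0% in each of the other 4 classes. DESeq2 called Igf2r in Car4- capillaries (adjusted p = 0.0227), and the adjusted p of that difference ran from 0.0227 to 1 over the alternatives. Of 10796 genes tested in all 5 classes, 93 (0.861%) lay higher in both hyperoxia mice in the same 4 classes, Igf2r among them. The 4 classes came from the same mice and are not independent.

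The differences depended in size on the male hyperoxia mouse. Without it they were 1.15 in Car4- capillaries, 0.35 in Car4+ capillaries, 0.51 in proliferative EC and 1.19 in venous EC. The male mice of both P7 groups shared a sequencing run. In their CD31-gate cells from that run the log2 differences were 1.96 in Car4- capillaries, 1.97 in Car4+ capillaries, 2.00 in proliferative EC, 1.75 in venous EC and 1.70 in arterial EC, with no test. All these values rest on that same male hyperoxia mouse. For the female mice no such pair within a run was available, so hyperoxia and run cannot be told apart in them. The deepest and the shallowest library, those of the P7 female and the P7 male mouse, were both in normal air. At 50000 reads per cell the share of Car4- capillaries with a read was 43.7% and 69.9% in the normal-air female and male and 90.8% and 86.4% in the hyperoxia mice. In Car4+ capillaries the shares were 19% and 29.2% against 57.9% and 83.8%.

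The Igf2r difference in Car4- capillaries was as large within the Early label and without the leading cells. Early Car4- cells alone had 91.6 and 92.3 CPM in normal air and 248 and 455 CPM in hyperoxia. Without the cell with the most reads in each sum, Car4- capillaries had 83.1 and 92 CPM against 238 and 427 CPM. Tests of whether the hyperoxia difference of Igf2r was unlike that of Car4- capillaries gave p = 0.948 for Car4+ capillaries, 0.802 for venous, 0.518 for proliferative and 0.820 for arterial EC, which does not show that the classes responded alike. The epithelial genes summed to 24.8 and 45.5 CPM in Car4- capillaries in normal air and to between 44.5 and 118 CPM in hyperoxia, and the fibroblast genes in venous EC were higher in hyperoxia too (91.9 and 101 against 0.386 and 39.6 CPM). The part of these markers in the Igf2r values was not tested.

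**Figure D4:**
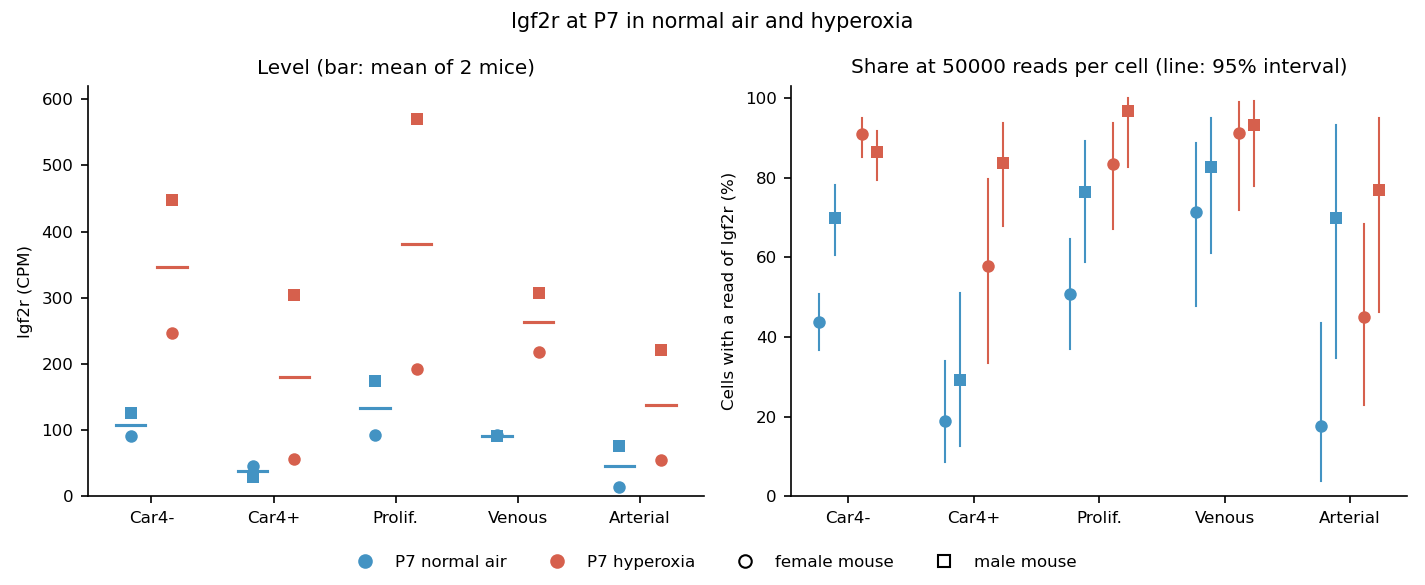
Igf2r at P7 in normal air (blue) and hyperoxia (red) in 5 classes: left, level in CPM with a bar at the mean of 2 mice; right, percent of cells with a read after thinning to 50000 reads, with 95% exact binomial intervals. In Car4- capillaries the levels are 91.4 and 125 CPM against 247 and 447 CPM; the arterial levels of the 2 groups overlap.

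Igfbp4 (chromosome 11, 99041244 to 99054392, plus strand), whose product binds and holds back IGFs, had its highest class medians in arterial and lymphatic EC, where Igfbp7 lay above it per kilobase (445 against 320.2 CPM per kb in arterial and 364 against 261 in lymphatic EC). Arterial EC had 881 and 1558 CPM at E18.5, then 1270 and 1192 CPM at P1, 888 and 4583 CPM at P7 and 1689 and 2289 CPM in hyperoxia. The value of 4583 CPM came from 10 cells, 1 of which held 74.6% of the reads. Of these 10 cells, 6 carried the arterial EC II label. Pooled over all mice, arterial EC II had 2187 CPM and arterial EC I 1017 CPM. Lymphatic EC had between 876 and 1397 CPM in 4 mice. Car4+ capillaries were lowest, at 138 and 126 CPM at P1, 115 and 48 CPM at P7, 123 and 38.9 CPM in hyperoxia and 53.1 and 25.9 CPM at P21.

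Over the 6 mice of P1, P7 and hyperoxia, Igfbp4 had 1985 ± 1362 CPM in arterial, 574 ± 262 in venous EC, 491 ± 111 in Car4- capillaries, 383 ± 102 in proliferative EC and 98.1 ± 43.1 in Car4+ capillaries. Arterial EC lay above venous EC in 6 of 6 mice (1.68 ± 0.59 on the log2 scale), and proliferative EC above Car4+ capillaries in 6 of 6 with no overlap (2.05 ± 0.57). Venous EC and Car4- capillaries, neighbours in the order, did not differ beyond their spread (0.13 ± 0.55). Igfbp4 had a read in 95.7% of arterial, 93.9% of lymphatic, 87.7% of venous and 86.9% of embryonic EC, in 67.3% of Car4- and in 102 of 332 (30.7%) Car4+ capillaries. No age step or hyperoxia comparison of Igfbp4 had an unadjusted p under 0.05. Car4- capillaries, for example, had 596 and 434 CPM at P1, 519 and 634 CPM at P7, 413 and 349 CPM in hyperoxia and 402 and 239 CPM at P21.

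Igfbp7 (chromosome 5, 77349240 to 77408041, minus strand) was highest in Car4+ capillaries, where Igfbp4 was lowest. Car4+ capillaries had 4025 and 5078 CPM at P1, 3457 and 6294 CPM at P7, 2665 and 3120 CPM in hyperoxia and 6102 and 5616 CPM at P21, with a read in 331 of 332 cells (99.7%). Over the 6 mice of P1, P7 and hyperoxia they had 4107 ± 1357 CPM, against 647 ± 269 in Car4- capillaries, 596 ± 217 in proliferative, 532 ± 196 in arterial and 113 ± 53.2 CPM in venous EC. Car4+ lay above Car4- capillaries in 6 of 6 mice with no overlap, by 2.70 ± 0.46 on the log2 scale, and arterial above venous EC in 6 of 6 by 2.25 ± 1.09. Car4- capillaries, proliferative and arterial EC did not differ beyond their spread. Pooled over all mice, arterial EC I had 731 CPM and arterial EC II 153 CPM, with a read in 83.3% and 42.9% of cells. A stretch of 85 exon bases (7.03% of the gene's exon bases) overlaps Polr2b on the other strand. Whether the counting used strand is not given in the sources used here, so reads from that stretch cannot be told apart, and Polr2b had 96272 reads over all cells where Igfbp7 had 1954867.

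Around birth Igfbp7 was higher at P1 than at E18.5 in 3 comparisons. Embryonic EC had 249 and 134 CPM in the E18.5 female and male, and the P1 Car4- capillaries 467 and 1098 CPM, a log2 difference of 2.20 (SE 0.54, p = 0.0010, adjusted p = 0.130). Age and subtype label differ together in this comparison, in which 0.494% of all genes tested and none of the 9 were called. Within the run shared by the female mice, the P1 Car4- capillaries had 464 CPM and the embryonic EC 249 CPM. That log2 difference, 0.89, was smaller than the fitted 2.20. Proliferative EC had 218 and 152 CPM at E18.5, against 575 and 518 CPM at P1, a log2 difference of 1.66 (SE 0.54, p = 0.011, adjusted p = 0.545), and 278 and 878 CPM at P7 (1.58, SE 0.54, p = 0.014, adjusted p = 0.859 against E18.5). The P1 female value rested on 13 cells, 1 of which held 74.1% of the reads.

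In venous EC the E18.5 female and male had 6.15 CPM and no read of Igfbp7, and the P1 mice 113 and 209.9 CPM, a difference of 5.52 (SE 1.51, p = 0.0032, adjusted p = 0.392). The reads summed to 63 against 13578, a pooled ratio of 59.4. Arterial EC, with 538 and 251 CPM at E18.5, against 684 and 352 CPM at P1, overlapped. For the step from embryonic EC to P1 capillaries, DESeq2 (adjusted p = 0.00245) and edgeR on the thinned cells called Igfbp7, and its adjusted p ran from 0.00245 to 0.586 over the alternatives. The log2 difference was 1.25 without the P1 male mouse, and the gene was called without the P1 female mouse.

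Under hyperoxia Igfbp7 was lower with no overlap in Car4+ capillaries, and the groups overlapped in the other 4 classes. The hyperoxia mice had 2665 and 3120 CPM and the normal-air mice 3457 and 6294 CPM, a log2 difference of -1.07 (SE 0.46, p = 0.037, adjusted p = 0.731). Set against the difference in Car4- capillaries within the same mice, that of Car4+ capillaries was lower, with a fitted interaction of -1.02 (SE 0.32, p = 0.0093, adjusted p = 1). Over the alternatives the difference within Car4+ capillaries ran from -1.45 to -0.33, the latter without the P7 male mouse, whose 24 Car4+ capillaries had 24.3% of their Igfbp7 reads in 1 cell.

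Igfbp5 (chromosome 1, 72857932 to 72874884, minus strand), a binding protein that also attaches to extracellular matrix, was found most often in venous and lymphatic EC. A read was found in 74 of 203 venous (36.5%, 29.8 to 43.5) and 22 of 82 lymphatic EC (26.8%, 17.6 to 37.8), in 6.52% of arterial EC, 1.44% of Car4- capillaries and 1 of 332 Car4+ capillaries. At 50000 reads per cell the venous and lymphatic shares were 29.9% and 24.4%. Over the 6 mice of P1, P7 and hyperoxia, venous EC had 125 ± 57 CPM, arterial EC 86.2 ± 94.2, proliferative EC 18.3 ± 37.3, Car4- capillaries 1.02 ± 1.91 and Car4+ capillaries 0.101 ± 0.247. The 2 arterial labels differed. Pooled over all mice, arterial EC I (96 cells) had 1.52 CPM and arterial EC II (42 cells) 139 CPM. A read was found in 4.17% and 11.9% of these cells. Venous EC lay above Car4- capillaries in 6 of 6 mice (6.11 ± 1.40 on the log2 scale) but above arterial EC in 3 of 6, so these neighbours did not differ beyond their spread (2.52 ± 4.20).

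The step from E18.5 to P1 in venous EC gave the 1 call among the 9 genes. Igfbp5 had 0.0975 CPM (1 read) and 0 CPM in the E18.5 female and male, with 11 cells each. At P1 it had 85.7 CPM (7 of 17 cells) and 183 CPM (24 of 50 cells). The fitted log2 change was 11.09 (SE 1.45, p = 5.8e-06, adjusted p = 0.0357 in edgeR), and it depends on the prior count because 1 group had next to no reads. The reads summed to 11675 against 1, a pooled ratio of 3217 with a counting interval of 577.2 to 127057. That interval covers neither the spread between cells nor that between mice. Of the genes tested in this comparison 0.0162% were called. In all, 1 of 137 tests of the 9 genes over 17 comparisons passed, where 0.057% of all tests passed, and 25 had an unadjusted p under 0.05, where 6.28% of all tests did.

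Of 10 alternatives that kept all mice the call held in 6, with an adjusted p from 4.1e-12 to 0.550 over all alternatives. It was lost with CD31-gate cells alone, with limma on mean log2 CPM over cells, with sex as a block and with the 2 groups fitted alone (adjusted p = 0.550). It also held in each of 8 fits without 1 mouse, 4 of which left out a P7 or hyperoxia mouse that enters only through the shared spread; in the other 4 an age had a lone mouse, assumed to vary like the rest. Several of these settings called far more genes than the 2 of the main analysis, 543 with DESeq2, 666 without the E18.5 female and 233 without the E18.5 male. The female mice of both ages shared a sequencing run, the male mice did not. The E18.5 venous cells carried the venous gene Nr2f2 at 344 and 753 CPM, on both sides of the 399.99 and 432 CPM of P1, but the venous marker Slc6a2 at 7.71 and 0.112 CPM against 179 and 91.9 CPM. Whether the label holds the same kind of cell at both ages was not tested.

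After P1 venous Igfbp5 stayed detected, at 138 CPM (4 of 21 cells, 96.8% of reads in 1) and 30.9 CPM (11 of 23) at P7, 142 CPM (11 of 23) and 170 CPM (10 of 30) in hyperoxia and 102 CPM in the P21 female (6 of 13), which was 11.7 CPM without its leading cell. P7 and P1 overlapped (p = 0.407). The hyperoxia mice lay just above the P7 mice, a log2 difference of 0.87 (SE 0.87, p = 0.339, adjusted p = 1). Arterial EC had no read of Igfbp5 in 36 cells at E18.5 and 137 CPM (1 of 19 cells) and 211 CPM (3 of 19 cells) at P1. Taking 3 reads over the E18.5 group as the floor, the pooled reads at P1 were at least 1819-fold higher relative to depth. This bound counts reads and leaves out the spread between cells and between mice, and the P1 level rested on 4 cells. The edgeR test gave p = 0.0044 and an adjusted p of 0.967. In proliferative EC 93.4 CPM in the P7 male mouse came from 2 cells, and the comparisons that hold this mouse (P7 against E18.5, p = 0.024; hyperoxia against P7, p = 0.010) rested on them.

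Cells with a read of Igfbp5 had reads of mural genes (5 genes) in 30.5% against 19.1% of the other cells and of fibroblast genes in 29.1% against 19.1%, with medians of 0. In venous EC the summed mural genes lay between 0.0975 and 10.7 CPM at E18.5, against between 19.7 and 21.9 CPM at P1, and the fibroblast genes between 3.02 and 19.2 and between 0.64 and 6.46 CPM. At P7 the venous fibroblast sums were 0.386 and 39.6 CPM, in hyperoxia 101 and 91.9 CPM, and the mural genes reached 24.8 CPM. Single genes of these lists differed: Col1a1 reached 11.9 CPM in a venous sum, and Pdgfrb and Dcn at most 0.289 and 0.017 CPM. The part of these markers in the Igfbp5 result was not tested.

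The remaining binding protein genes were rare. Igfbp3 (chromosome 11, 7206086 to 7213923, minus strand), the main carrier of IGFs in blood, was found in 18 of 138 arterial EC (13%) and in 0 of 332 Car4+ capillaries, for which the 95% exact binomial interval reaches up to 1.1%. Arterial EC had 0 and 13.5 CPM (5 cells) at E18.5, then 33.1 and 32.4 CPM (2 and 7 cells) at P1, 0 and 19.7 CPM (2 cells) at P7 and 55.6 and 0.295 CPM (1 cell each) in hyperoxia. P1 lay above E18.5 (2.13, SE 2.89, p = 0.473) and above P7, and all these groups rested on at most 9 cells. No comparison of Igfbp3 had an unadjusted p under 0.05.

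Igfbp2 (chromosome 1, 72824503 to 72852474, plus strand), the neighbour of Igfbp5, had its highest group means in arterial and embryonic EC of E18.5. Arterial EC had 94.4 CPM (5 of 16 cells) and 64.4 CPM (3 of 20 cells) at E18.5 and 1.88 and 1.55 CPM (1 cell each) at P1, a log2 difference of -5.66 (SE 2.52, p = 0.045, adjusted p = 0.967). Embryonic EC had 34.2 CPM, with 86.6% of reads in 1 of 10 cells, and 12.2 CPM. Proliferative EC had 7.07 and 10.5 CPM at E18.5 (17 of 206 cells), and 26.9 CPM from 1 cell in the P1 male. Igfbp2 had 0 reads in the lymphatic EC. A further 5 comparisons with an unadjusted p under 0.05 (0.021 to 0.046) each set a group with no read against 1 to 4 cells with reads. Igfbp6 (chromosome 15, 102144362 to 102149511, plus strand) had 588 reads in 20 cells of the whole series, and its highest sum, 8.33 CPM in the Car4+ capillaries of the male hyperoxia mouse, came from 1 cell.

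**Figure D5:**
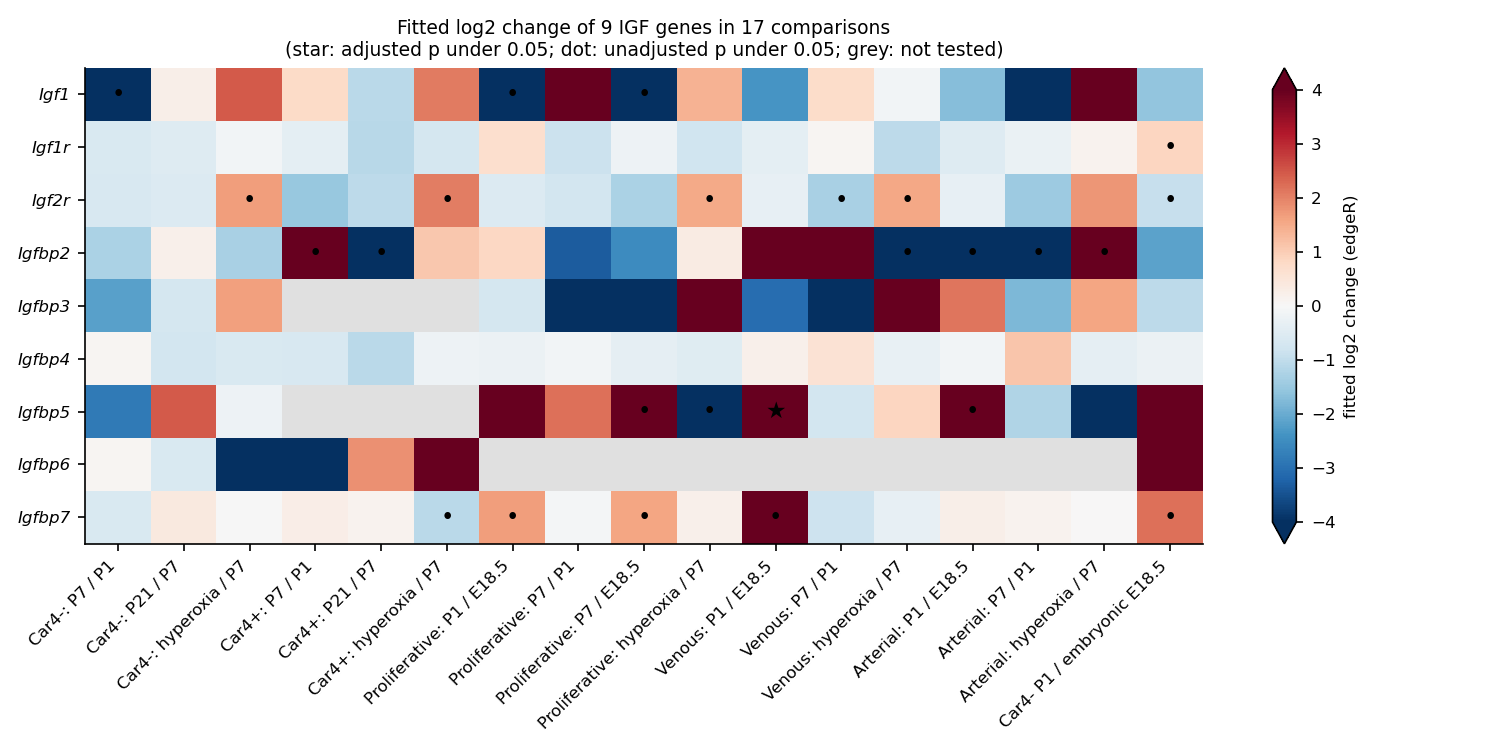
Fitted log2 change (edgeR) of the 9 genes in 17 comparisons of ages or hyperoxia, named as class: first group / second group; the colour is clipped at 4 in each direction, a star marks an adjusted p under 0.05, a dot an unadjusted p under 0.05 and grey a gene not tested. Changes of genes with a group at 0 reads depend on the prior count and give no size. The 1 star is Igfbp5 in venous EC, P1 against E18.5, and Igf2r has a dot in 4 of the 5 hyperoxia columns.

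A further 41 genes of the IGF pathway were counted, of which 36 are in the table. Over the 17 comparisons 0 of their 500 tests passed an adjusted p of 0.05 in edgeR, and 44 had an unadjusted p under 0.05, beside 0.057% and 6.28% of the tests of all genes. The pathway genes described next are picked from these 44, and each change given for them is lower in the later or hyperoxia group. The 44 went both ways. In proliferative EC, 3 were higher and 1 lower at P7 against P1, and 0 higher and 4 lower at P1 against E18.5. Under hyperoxia in Car4- capillaries 2 were higher and 2 lower. Igf2, the other ligand, had its highest levels in lymphatic and arterial EC, and in venous EC at E18.5 and P1. It lay at 3132 CPM in the lymphatic EC of the E18.5 male, at 2984 and 2525 CPM in those of P1 and at 263 CPM in those of the female hyperoxia mouse. In venous EC it had 367 and 206 CPM at E18.5, then 641 and 96.7 CPM at P1 and 1.70 and 5.03 CPM at P7 (P7 against P1 -6.82, SE 1.50, p = 0.00066, adjusted p = 1). In arterial EC it had 470 and 1293 CPM at P1 and 27 and 110 CPM at P7 (-3.76, SE 0.99, p = 0.0023, adjusted p = 0.997). Both P7 mice lay below both P1 mice in both classes. The P7 values rested on few cells, with a read of Igf2 in 3 of 44 venous and 8 of 27 arterial EC.

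In Car4- capillaries Igf2 had 26.2 and 10 CPM in normal air at P7 and 0.514 and 0.287 CPM in hyperoxia (-5.54, SE 1.64, p = 0.0051, adjusted p = 0.887). A read was found in 29 of 322 of these cells in normal air and in 4 of 285 in hyperoxia. Grb10, an adaptor that binds IGF1 and insulin receptors, had 585 and 417 CPM in proliferative EC at E18.5, 178 and 125 CPM at P1 and 100 and 133 CPM at P7 (P7 against E18.5 -2.15, SE 0.43, p = 0.00040, adjusted p = 0.238). Igf2bp1, which encodes an RNA-binding protein named for Igf2 mRNA, had 51.2 and 47.1 CPM in proliferative EC at E18.5 and 0.675 and 0.733 CPM at P1 (-6.01, SE 1.86, p = 0.0081, adjusted p = 0.520). The groups of these genes did not overlap.

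Likeness of pattern was described over the 48 mouse and class sums, among 8904 genes, as Pearson's r of log2(CPM + 1). Sums of the same mouse share libraries, and sums of the same class share a cell type, so the values carry no p. The genes most like Igfbp7 were Sept4 (0.87), Clec1a (0.78) and St6galnac4 (0.77), and those most like Igfbp4 were Fblim1 (0.83), Fbn1 (0.80) and Ltbp4 (0.79). Igfbp5 was most like Tmem45a (0.79), Fam189a2 (0.73) and Ntn1 (0.70), and Igf1 most like Mmrn1 (0.74), Maf (0.71) and Nrp2 (0.65). For Igf2r they were Prelid2 (0.70), Tmsb10 (0.69) and Atp5j2 (0.65), and for Igf1r Plaa, Dmwd and Utp14a (0.63 each). Among the 9 genes the highest value was 0.51 (Igfbp3 and Igfbp4) and the lowest -0.43 (Igfbp4 and Igfbp7).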

How the data were processed

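Single endothelial cells of mouse lung were the deposited samples, and the mouse was the replicate. The authors deposited a table of raw counts (whole numbers of reads, 1 column a cell), not normalized per the values. The submitters' processing notes name STAR 2.5.2b, HTSeq 0.10 and the build GRCh38, a human build, so no position was taken from it: gene positions are from GENCODE M21 on GRCm38, matched by symbol, and 18017 of 18072 symbols matched. Subtype, age, treatment, sex and mouse name came from the labels. No 2 cells had the same profile.

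Counts were summed per mouse and class and tested with edgeR 4.0.16 in R 4.3.3 (TMM, filterByExpr, quasi-likelihood F test), with all groups of a class in which both mice had at least 8 cells in 1 model. P-values were adjusted by Benjamini and Hochberg over all genes tested, with calls at adjusted p under 0.05. The 17 comparisons and 4 differences of hyperoxia effects (interaction terms with the mouse as a term) are those of the report. The scripts were tested on simulated data. All 9 members were described; full statistics are given where a member was called, where its unadjusted p was under 0.05, or where the groups did not overlap and the log2 change was at least 1, with rare members summarised. The 3 most similar genes were named for members with a mean of at least 10 CPM. The members and gene lists were chosen with earlier results of these data known. Alternatives were DESeq2 1.42.0, RLE normalization, no filter, CD31-gate cells alone, thinning every cell to 50000 reads (which drops 11 cells), limma 3.58.1 on mean CPM or mean log2 CPM over cells, the groups compared alone, sex as a block and leaving out each mouse; leaving out the cell with most reads was added after seeing the data. The 10 cells labelled proliferative venous EC entered no sum.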

Additional observations from a re-analysis of the deposited data

Results flagged for a closer look

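Of the E18.5 female mouse, 13 cells carried a Car4- capillary label, and with 1 mouse they entered no comparison. In these cells Igf1 lay at 572 CPM, above the highest value of any other E18.5 class used for comparison (121 CPM in embryonic EC of the same mouse), from 3 cells with a read, 1 of which held 93.6% of the reads. Igf2r lay at 482 CPM, above 366 CPM in the proliferative EC of the same mouse, from 8 cells with a read, 1 of which held 51.2%. The other 7 members were not above the other E18.5 classes in these cells.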

How the results depend on the processing

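The counts of called members took 206 values under settings other than leaving out a mouse, of which 182 stayed within 1.5 times the main count and 24 moved. Leaving out a mouse moved 8 of 164. The main count was 0 everywhere but in venous EC at P1 against E18.5. Most unmoved values therefore say only that no member was called in either setting. Calls over all genes moved with the setting too: 2.38% of all tests with DESeq2, 0.286% with no filter and 0.203% with limma on mean log2 CPM, against 0.057% in the main analysis, so more calls are not particular to the 9 genes. DESeq2 gave 11 member calls over the 17 comparisons where edgeR gave 1: 1 for Car4- capillaries at P7 against P1 (Igf1) and 1 under hyperoxia (Igf2r), 2 each for proliferative EC at P1 and at P7 against E18.5, 1 under hyperoxia (Igfbp5), 2 for venous EC at P1 against E18.5 (Igfbp5, Igfbp7), 1 for arterial EC at P1 against E18.5 (Igfbp5) and 1 for the step from embryonic EC to P1 Car4- capillaries (Igfbp7). It also called 1 member (Igfbp5) in the difference of hyperoxia effects of proliferative EC and Car4- capillaries. With no filter on low counts 1 member was called in each of the comparisons of proliferative EC at P1 and P7 against E18.5 and under hyperoxia, 2 in venous EC and 1 in arterial EC at P1 against E18.5. limma on mean log2 CPM called 1 (Igf1) in Car4- capillaries at P7 against P1, in proliferative EC at P1 and at P7 against E18.5 and in the step around birth, and 0 in venous EC at P1 against E18.5. The thinned cells called 1 (Igfbp7) in the step around birth, and the groups alone 1 (Igf1) in proliferative EC at P7 against E18.5. The venous count at P1 against E18.5 was 0 with CD31-gate cells alone, the groups alone or sex as a block. Leaving out 1 mouse gave 1 to 2 calls there (2 without either E18.5 mouse), 0 to 2 in proliferative EC at P1 against E18.5 (2 without the P1 female), 0 to 1 in arterial EC at P1 against E18.5 (1 without any single P7 or hyperoxia mouse) and 0 to 1 in the step around birth (1 without the P1 female). Igf1 in arterial EC at P1 against E18.5 reversed with limma on mean log2 CPM, to 0.012. The causes were not tested. Of 315 named log2 changes 289 kept their side of the threshold, and 14 of 14 class differences moved by less than 1 SD. No paired analysis was possible because the labels pair no mice across groups; sex as a block, which joins mice by sex alone, left 0 calls over the 17 comparisons. The 2 mice per group and the few cells with reads limit every value of Igf1, Igfbp2, Igfbp3, Igfbp5 and Igfbp6.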
